A study of Mus musculus with 14 samples.

Results

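T, Eomes, Mixl1, Gsc, Mesp1, Cer1, Gata4, Gata6 and Hnf4a are genes that direct the formation of mesoderm and endoderm. They were taken as a named list of 9 genes among 21938 protein-coding genes and 55413 annotated genes, and the regions called by chromatin immunoprecipitation and sequencing (ChIP-seq) in and around each of them were counted and placed. The cells were 81K1 mouse embryonic stem cells (ESC), a clone of the OG2 line that carries a doxycycline-inducible shRNA against Smarcb1 in the Rosa26 locus. Both groups carry this construct, so that the untreated cells (ctrl) are cells with an uninduced shRNA and not cells without one. Knockdown cells (Smarcb1 kd) received 1 µg/ml doxycycline for 72 h, and the labels name no doxycycline-treated cells without the shRNA. The series has 14 samples, 10 of them libraries and 4 of them inputs. The libraries come from 5 antibodies, against the remodeller ATPase Smarca4, the methyltransferase Ezh2 and the histone marks H3K27me3, H3K27ac and H3K4me3, each used once in ctrl and once in kd. No difference below could therefore be held against a spread between replicates, no p-value is given, and each comparison is one of 2 libraries. The deposited lists carry no read counts, so the depth behind a call is unknown, and a region that is not called may lie just under the threshold.

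In the embryo, mesoderm and definitive endoderm arise when cells of the epiblast pass through the primitive streak. T (Brachyury) and Eomes are T-box transcription factors of the streak, Mixl1 and Gsc are homeobox factors of the streak and its anterior part, and Mesp1 is a basic helix-loop-helix factor of early cardiac mesoderm. Gata4 and Gata6 are zinc finger factors of endoderm and heart, Hnf4a is a nuclear receptor of visceral endoderm and liver, and Cer1 is a secreted antagonist of Nodal, BMP and Wnt signals made in anterior endoderm. In ESC many such genes are kept silent but inducible. Their start sites then carry H3K4me3, a mark of active or poised promoters, together with H3K27me3, the mark that Ezh2 writes as the catalytic subunit of Polycomb repressive complex 2 (PRC2), a state called bivalent. H3K27ac marks active promoters and enhancers. Smarca4 (Brg1) is the ATPase and Smarcb1 a core subunit of the BAF chromatin remodelling complex, which is known to oppose Polycomb complexes.

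Sequences of the promoters show how unlike these start sites are. RefSeq promoters (GRCm38.p6, from 250 bases before to 50 after the start) were at hand for 6 of the 9 genes, T, Eomes, Gsc, Mesp1, Cer1 and Hnf4a, and not for Mixl1, Gata4 and Gata6. CpG dinucleotides are in capitals, since H3K4me3 and Polycomb are known to gather at CpG-rich starts in ESC. The 4 printed promoters span the range of CpG number and of marks, all 5′ to 3′ on the strand of the gene.
Gsc, chr12:104473187-104473486, minus strand: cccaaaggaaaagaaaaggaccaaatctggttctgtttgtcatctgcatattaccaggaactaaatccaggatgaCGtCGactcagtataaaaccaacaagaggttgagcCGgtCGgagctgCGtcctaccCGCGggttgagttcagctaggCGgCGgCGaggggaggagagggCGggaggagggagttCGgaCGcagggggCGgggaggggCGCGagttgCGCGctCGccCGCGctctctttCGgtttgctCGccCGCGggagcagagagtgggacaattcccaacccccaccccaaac
Mesp1, chr7:79793541-79793840, minus strand: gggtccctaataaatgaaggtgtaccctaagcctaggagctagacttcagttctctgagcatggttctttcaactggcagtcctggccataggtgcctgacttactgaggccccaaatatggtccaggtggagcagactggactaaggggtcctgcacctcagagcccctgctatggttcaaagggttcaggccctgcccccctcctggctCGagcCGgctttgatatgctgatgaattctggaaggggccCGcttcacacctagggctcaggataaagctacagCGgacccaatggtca
Cer1, chr4:82885102-82885401, minus strand: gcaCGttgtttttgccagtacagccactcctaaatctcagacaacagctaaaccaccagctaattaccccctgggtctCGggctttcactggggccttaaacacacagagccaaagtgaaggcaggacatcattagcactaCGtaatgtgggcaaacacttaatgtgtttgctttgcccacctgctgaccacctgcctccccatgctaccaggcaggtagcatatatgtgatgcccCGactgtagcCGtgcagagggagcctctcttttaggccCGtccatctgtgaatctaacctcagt
Hnf4a, chr2:163506607-163506906, plus strand: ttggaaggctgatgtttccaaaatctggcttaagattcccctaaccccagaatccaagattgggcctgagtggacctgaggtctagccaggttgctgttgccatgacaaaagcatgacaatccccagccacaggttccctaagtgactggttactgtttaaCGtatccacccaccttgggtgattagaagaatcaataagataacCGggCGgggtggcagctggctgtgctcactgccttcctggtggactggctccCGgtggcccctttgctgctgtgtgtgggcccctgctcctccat

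The Gsc promoter held 25 CpGs, a number reached by 18.4% of all 32851 RefSeq promoters, whose median was 7. T held 17 and Eomes 10, Cer1 held 6, and Mesp1 and both promoters of Hnf4a held 4 each. Regions of H3K4me3, H3K27me3 and Smarca4 lay on the promoters of T, Gsc and Mesp1 in both conditions, and those of T and Gsc also had Ezh2. The Eomes promoter had H3K4me3, H3K27me3 and Ezh2 in both conditions and Smarca4 in ctrl only, while a kd peak of Smarca4 began 0.2 kb downstream of the start. The RefSeq starts of Gsc and Mesp1 lie 94 and 198 bp downstream of the GENCODE starts from which all distances below are counted. The Cer1 promoter had no called region of any antibody, and both Hnf4a promoters had H3K27me3 in ctrl only. Within these 300 bases CpG number and marks did not run in parallel in every gene, since Mesp1 with 4 CpGs was bivalent and Cer1 with 6 was unmarked. The H3K4me3 island of Mesp1 reached 1.4 kb downstream of the GENCODE start, and CpGs beyond the promoter were not counted. Short motifs were searched as exact letters on both strands. The TCF/LEF letters CTTTGAT were found in the Mesp1 promoter and in 3.73% of all promoters. Mesp1 also held the letters of a T-box site, GGTGTGA, as did 3.98% of all. The first Hnf4a promoter held the GATA letters AGATAA, present in 11.2% of all. Gsc had the letters of a core promoter element, TATAAA, present in 13.6%. The Foxh1 letters AATCCACA, present in 0.855%, were in none of the 6 genes' promoters.

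Most of the 9 genes were called for Polycomb marks and Smarca4, and almost none for H3K27ac. The gene region was taken from 1 kb upstream of the start to the end of the gene. H3K27me3 was called in 8 gene regions in ctrl and 8 in kd, against 42.4% and 35.6% of protein-coding genes. Ezh2 was called in 6 and 7 gene regions, against 12.6% and 15.4%. Smarca4 was called in 8 and 8, against 70.3% and 71.7%. H3K4me3 was called in 8 and 7, against 63.4% and 68.1%. H3K27ac was called in 0 gene regions in ctrl and in 2, Gata4 and Hnf4a, in kd, against 32.4% and 48.2%. Both kd islands lay in introns, were absent under a stricter threshold and covered repeat-masked sequence at 45.4% (Gata4) and 61.3% (Hnf4a) of their bases.

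**Figure D1:**
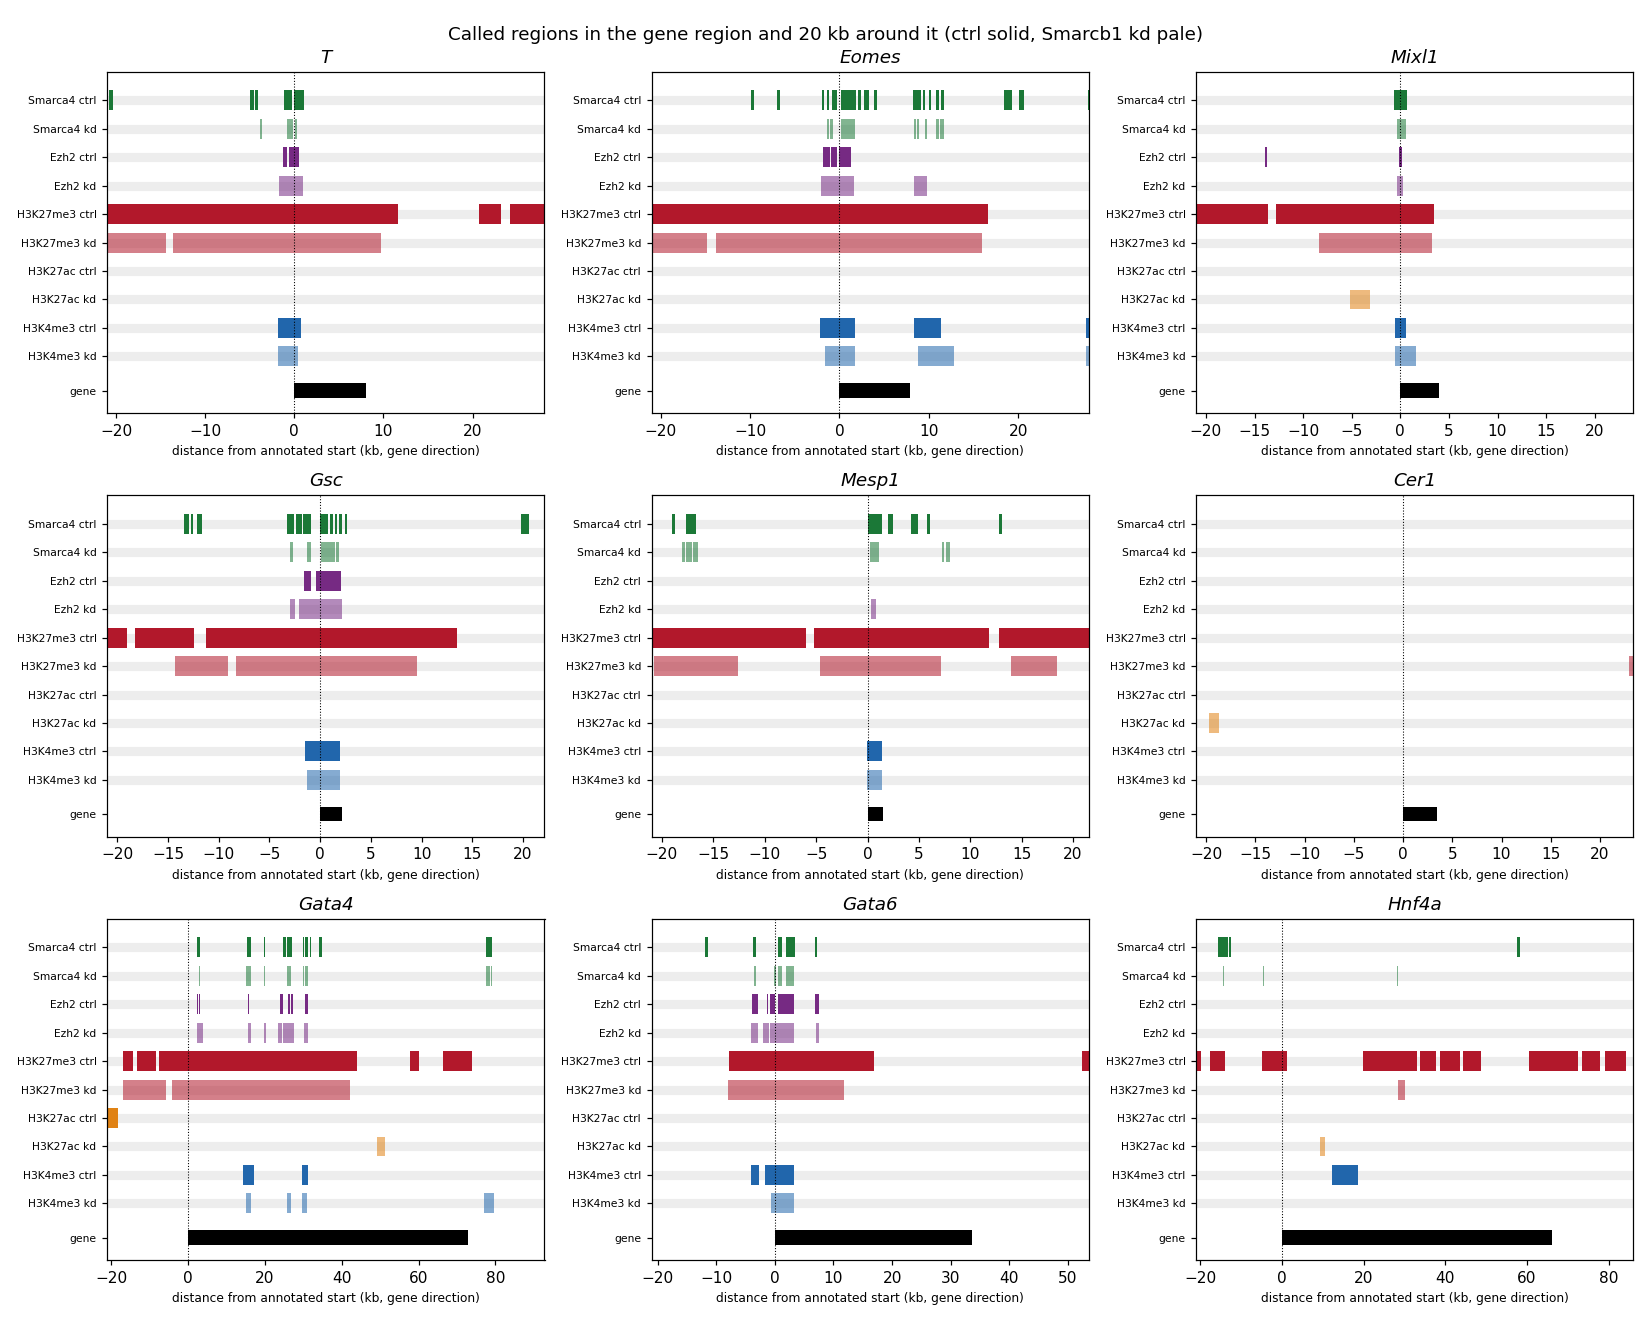
Regions called for the 5 antibodies in ctrl (solid) and Smarcb1 kd (pale) along each of the 9 genes and 20 kb around it, with the distance from the annotated start in kb on the horizontal axis and the gene as a black bar. A start with H3K4me3 inside a broad H3K27me3 island is seen in T, Eomes, Mixl1, Gsc, Mesp1 and Gata6 in both conditions, and Cer1 is nearly empty.

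Within 1 kb of the start, H3K4me3 and H3K27me3 were called together in T, Eomes, Mixl1, Gsc, Mesp1 and Gata6, and these 6 genes were bivalent by this measure in both conditions. The H3K4me3 island of Mesp1 in ctrl was weak, with rank 24013 of 26130. It was absent under the stricter threshold, which left 5 starts with H3K4me3 in ctrl. Of all protein-coding genes 21.2% were bivalent in ctrl and 21.6% in kd, and 81.4% of those bivalent in ctrl were still so in kd. Smarca4 peaks lay at the start of all 6 genes in both conditions, as at 97.5% and 97.8% of the genes bivalent in ctrl. Ezh2 peaks lay at 5 of the 6 in ctrl and at 6 in kd, where Mesp1 was added, against 29.2% and 50.8%. H3K27ac was called at the start of 0 of the 6 in either condition, against 6.19% and 25% of the genes bivalent in ctrl. The remaining genes were Gata4 and Hnf4a, with H3K27me3 as the single mark at the annotated start in ctrl, and Cer1 with no region at its start.

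The H3K27me3 islands over the starts were narrower in kd than in ctrl in all 7 genes that had one in both. The kd island of T measured 23.4 kb and the ctrl island 35.6 kb, so that 65.7% of the width was kept. For Eomes the widths were 44.0 kb in ctrl and 29.8 kb in kd (67.7%). Mixl1 went from 16.2 to 11.6 kb (71.6%), Gsc from 24.8 to 17.8 kb (71.8%) and Mesp1 from 17.0 to 11.8 kb (69.4%). In the islands as deposited, the streak genes thus lay close together in this ratio. Gata6 with 24.8 kb in ctrl and 19.8 kb in kd (79.8%) and Gata4 with 51.4 and 46.4 kb (90.3%) kept more. This grouping did not hold once neighbouring islands were joined, as given below. The median over the 7 genes was 71.6%. Among the 3787 protein-coding genes bivalent in both conditions, 57.7% had a narrower island in kd, the median width was 11 kb in ctrl and 10.6 kb in kd, and the median ratio was 93.0%. The 7 genes had ctrl islands of 16.2 to 51.4 kb, all wider than this ctrl median. Bivalent genes of like ctrl width were not counted apart, so the contrast may depend on the starting width, which was not tested. All over the genome H3K27me3 islands covered 195.36 Mb in ctrl and 144.83 Mb in kd, so that the kd list is smaller as a whole.

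Part of this narrowing is a matter of where an island is broken. In T the kd list holds a second island from -24.6 to -14.4 kb upstream of the start, parted by under 1 kb from the island over the start, and in Eomes a second island from -32.0 to -14.8 kb. When islands less than 5 kb apart were joined, T measured 35.6 kb in ctrl and 34.4 kb in kd, and Gata4 60.8 and 59.2 kb, which left little of the difference. Eomes then measured 126.0 and 48.0 kb, Gsc 55.4 and 23.8 kb, Mesp1 47.0 and 11.8 kb, Mixl1 31.8 and 11.6 kb and Gata6, which had no neighbouring island, 24.8 and 19.8 kb. The joined ctrl island of Eomes reaches far beyond the gene. Within the gene region and 20 kb around it, H3K27me3 covered 37.59 kb in ctrl and 35.99 kb in kd, so that little of the Eomes difference lay there. All 7 remained narrower in kd, against 62.1% of the bivalent genes under the same joining. The streak genes no longer lay close together in the part kept, and T kept more of its width than Gata6. The edges of the deposited islands differed on different sides of the genes. In Mixl1 the upstream edge lay at -12.8 kb in ctrl and -8.4 kb in kd, and the downstream edge near the end of the gene, at 3.4 and 3.2 kb. In Gata6 the downstream edge lay at 16.9 and 11.7 kb and the upstream edge at -7.9 and -8.1 kb. In Gsc both edges lay further in, at -11.3 and 13.5 kb in ctrl and at -8.3 and 9.5 kb in kd.

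**Figure D2:**
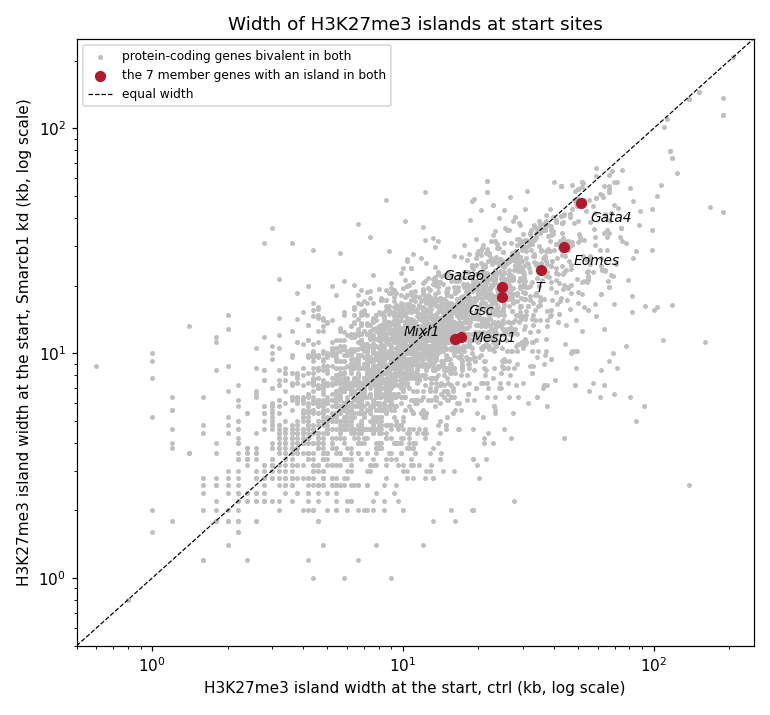
Width of the H3K27me3 islands within 1 kb of the start in ctrl and in Smarcb1 kd, both in kb on log scales, for the 3787 protein-coding genes bivalent in both conditions (grey) and for the 7 member genes with an island in both (red). The 7 red points lie under the dashed line of equal width, with Gata4 nearest to it.

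Over gene region and 20 kb on either side, H3K27me3 covered less of 8 of the 9 windows in kd, and 72.2% of protein-coding genes with the mark in either list had less in kd. Summed over the 9 windows it covered 327.4 kb in ctrl and 204.6 kb in kd, that is 62.5%, against 74.1% over the genome. The largest difference was in Hnf4a, at chr2:163506808-163572910 on the plus strand, where 10 islands covered 59.19 kb in ctrl and 1 island covered 1.80 kb in kd. The kd island lay in an intron from 28.4 to 30.2 kb downstream of the start, and none of the 5 annotated start sites of Hnf4a kept the mark. The ctrl islands of Hnf4a had ranks between 8322 and 22425 of 22909 when islands are ordered by p-value, so that not all were weak for their list. The intron island that overlapped the kd island ranked 8322. Ctrl-only islands across the end of the gene and downstream of it ranked 9034 and 10546. All the others ranked 14034 or weaker, with the island over the annotated start at 18384. Over the 9 windows 15 of 29 ctrl islands (51.7%) had no overlap in kd, 9 of them in the Hnf4a window, and 1 of 15 kd islands (6.67%) had none in ctrl. The 15 came down to 6 with lists of equal length and to 6 under the stricter threshold. Of the whole lists 44.1% of ctrl islands and 28.9% of kd islands were without a counterpart. The 1 kd-only island lay 22.9 kb downstream of the Cer1 start and measured 1.8 kb.

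Ezh2 peaks at the starts were wider in kd in all 5 genes that had them in both conditions. Their summed width was 1.67 kb in ctrl and 2.68 kb in kd in T, 1.9 and 3.68 kb in Eomes, and 0.40 and 0.66 kb in Mixl1. Gsc had 3.15 and 4.25 kb and Gata6 1.70 and 4.08 kb. The kd width was between 1.35 and 2.40 times the ctrl width, with a median of 1.65. This is what most genes showed, since 97.8% of the 1331 genes bivalent and with Ezh2 in both conditions had wider peaks in kd, with a median ratio of 1.67. The direction at the members is therefore that of the list as a whole, with a median peak of 354 bp in ctrl and 736 bp in kd. Narrower H3K27me3 and wider Ezh2 were thus found at the same 5 starts, in libraries that were prepared in different laboratories.

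Several of the strongest Ezh2 peaks of the genome lay at these genes. In ctrl the peak over the Eomes start (-0.1 to 1.2 kb, score 700) ranked 25 of 6708 and a Gata6 peak over coding sequence (1.4 to 3.2 kb, score 529) ranked 83. The Gsc peak ranked 146 and the T peak 386. In kd the ranks of 5364 were 542 for Eomes, 63 for Gata6, 169 for Gsc and 364 for T. The lists differ in length and the kd peaks of Eomes and Gata6 each span 3 ctrl peaks, so that no difference is read from these ranks. Mixl1, whose peak was the narrowest, ranked 2222 in ctrl and 2417 in kd. In Mesp1 no Ezh2 peak was called in ctrl, and the kd peak over coding sequence (0.3 to 0.8 kb) was weak, with rank 4537. Over the windows 1 of 24 ctrl peaks was without overlap in kd, a peak 13.9 kb upstream of Mixl1 of which 93.7% was repeat-masked, against 51.2% of the ctrl list. Of the 17 kd peaks 4 were without overlap in ctrl, 1 each at Eomes, Gsc, Mesp1 and Gata4, against 49.4% of the kd list. The 4 became 7 with lists of equal length and 1 under the stricter threshold.

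Smarca4 was called more sparsely around the genes in kd, while each of the 6 starts with a peak within 1 kb in ctrl also had one in kd. The 9 windows held 62 peaks in ctrl and 37 in kd, and 8 of the 9 windows had less sequence under peaks in kd, against 57.9% of protein-coding genes with Smarca4 in either list. Cer1 had no Smarca4 peak in either condition. Peaks covered 38.0 kb in ctrl and 19.3 kb in kd, that is 50.9%, whereas over the genome they covered 49.16 and 40.53 Mb, that is 82.4%. Eomes went from 17 peaks to 8, Gsc from 12 to 4 and Gata4 from 11 to 8. Mesp1 had 7 and 6 peaks, T 5 and 3, Gata6 5 and 4, Hnf4a 4 and 3, and Mixl1 1 and 1. Of the ctrl peaks 33 of 62 (53.2%) had no overlap in kd, against 43.9% of the ctrl list, and 8 of 37 kd peaks (21.6%) had none in ctrl, against 35.6%.

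All 33 ctrl-only peaks lay more than 1 kb from the annotated 5′ end of the gene, and 10 of the 29 shared ctrl peaks lay within 1 kb. This does not hold for internal transcript starts, since a ctrl-only peak of Gata6 lay on one and a ctrl-only peak of Gata4, from 24.9 to 25.6 kb, within 1 kb of another. Nor does it hold for neighbouring genes. Ctrl-only peaks lay within 1 kb of the starts of Gm33460 (Eomes window), Gm44705 (Mesp1), Neil2 (Gata4) and R3hdml (Hnf4a). The 33 came down to 17 under the stricter threshold and to 21 with flanks of 10 kb, and the 8 kd-only peaks to 2 under the stricter threshold. Of the ctrl-only peaks 14 were upstream of the gene, 6 in introns, 2 in exons and 11 downstream. Their scores ran from 22 to 144 with a median of 51, and the shared peaks ran from 32 to 509 with a median of 99, so that the ranges overlapped and the ctrl-only peaks were the weaker ones on the whole. H3K27me3 islands of ctrl held 25 of the 33 and 27 of the 29 shared peaks. An Ezh2 peak of ctrl was touched by 2 of the 33 and by 18 of the 29. The strongest ctrl-only peak (score 144) lay in an intron of Gata4, 34.2 kb downstream of its start. A ctrl-only peak with score 118 lay over coding sequence of Gata6, 6.9 kb from the start and at the position of an internal transcript start. Gsc had 3 ctrl-only peaks between -13.5 and -11.7 kb and T a pair between -5.0 and -4.1 kb. In T a kd-only peak lay nearby, from -3.9 to -3.6 kb.

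**Figure D3:**
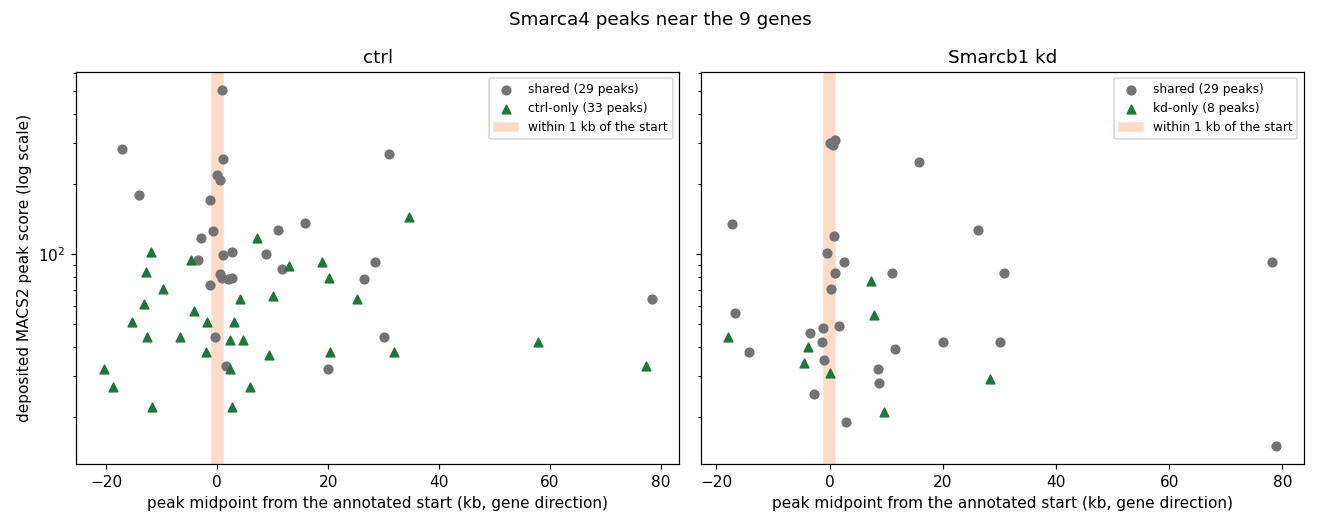
Each Smarca4 peak in the windows of the 9 genes by the distance of its midpoint from the annotated start (kb) and its deposited MACS2 score (log scale), in ctrl and in Smarcb1 kd, with peaks that overlap a peak of the other condition in grey and the others as green triangles. The 33 ctrl-only triangles lie outside the shaded 1 kb on either side of the start, and 1 of the 8 kd-only triangles lies inside it, at Gata6.

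At the starts themselves the score of the strongest Smarca4 peak differed in both directions. It was higher in ctrl in Mesp1 (509 in ctrl and 294 in kd), Gsc (209 and 120) and T (126 and 101). In Eomes (257 and 308), Mixl1 (220 and 299) and Gata6 (79 and 83) it was higher in kd. The Mesp1 peak ranked 507 of 79014 peaks in ctrl and 4034 of 72339 in kd. Scores depend on the depth of a library and are not scaled between the libraries, so that these pairs are given as values. In Gata6 a short kd-only peak (score 31) was added at -0.1 to 0.1 kb.

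H3K4me3 islands over the 6 bivalent starts were called in both conditions, with a wider island in kd in Mixl1, the same width in Mesp1 and narrower ones in the other genes. The widths were 2.6 kb in ctrl and 2.2 kb in kd in T, 4.0 and 3.4 kb in Eomes, 1.2 and 2.2 kb in Mixl1, 3.4 and 3.2 kb in Gsc, 1.4 and 1.4 kb in Mesp1 and 5.0 and 4.0 kb in Gata6. Ordered by p-value, the islands of 5 of the 6 genes had a smaller rank in kd, as had 69.6% of the genes bivalent in both. The kd list is longer, however, and with the rank taken as a percent of the list length all 6 genes had the smaller value in kd, as had 91.6% of the bivalent genes. The members were thus like bivalent genes at large by either count. Mesp1 differed most, from rank 24013 of 26130 in ctrl to 12792 of 33506 in kd. Eomes went from 11199 to 7101, Gsc from 13769 to 10529, Mixl1 from 11079 to 9631 and Gata6 from 15816 to 14573. T had 18172 and 18815, which are 69.5% and 56.2% of the list length, so that its direction depends on whether rank or percent is read. Over the windows 2 of 13 ctrl islands and 2 of 13 kd islands were without overlap, against 8.15% of the ctrl list and 29.8% of the kd list. The H3K4me3 list was longer as a whole in kd, with 134.61 Mb covered against 101.03 Mb.

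**Figure D4:**
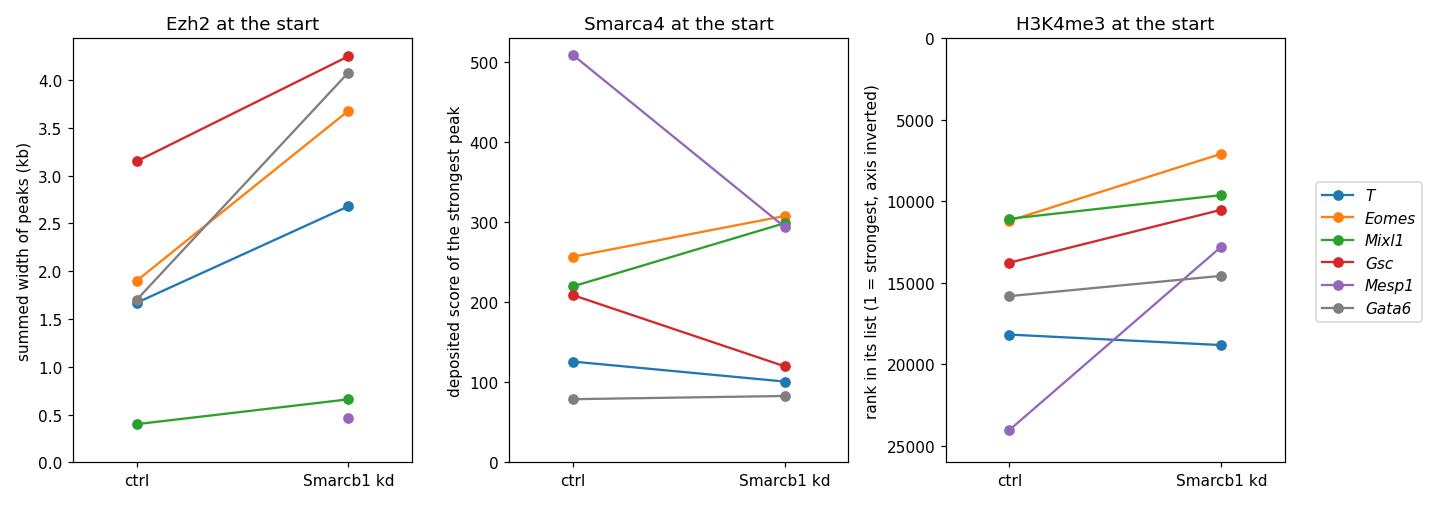
Values at the starts in ctrl and Smarcb1 kd, as lines per gene, for the summed width of Ezh2 peaks (kb), the deposited score of the strongest Smarca4 peak and the rank of the strongest H3K4me3 island (axis inverted, 1 is the strongest). Ezh2 lines rise in the 5 genes with peaks in both conditions, Mesp1 has a kd point alone, Smarca4 lines go up in 3 genes and down in 3, and the H3K4me3 lines compare ranks in lists of 26130 and 33506 islands, in which T goes down by rank but not as a percent of the list length.

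Among the genes of the streak, T (chr17:8434423-8442496, plus strand) had its H3K4me3 and Ezh2 within 2 kb of the start and no other annotated gene start in its window. In Eomes (chr9:118478212-118486132, plus strand) marks were also found downstream. An H3K4me3 island from 8.4 to 11.4 kb in ctrl and from 8.8 to 12.8 kb in kd lay at the start of the non-coding gene Gm33460, with Smarca4 in both conditions, and a kd-only Ezh2 peak lay just before it, from 8.3 to 9.8 kb. A further H3K4me3 island from 27.6 to 29.4 kb in ctrl, near no annotated start, had a Smarca4 peak (score 93) in ctrl, which overlapped a kd peak that starts beyond the window. Mixl1 (chr1:180693043-180697034, minus strand) had 1 Smarca4 peak, over its start. Its kd-only H3K27ac island, from -5.2 to -3.2 kb, was 61.0% repeat-masked. Gsc (chr12:104471209-104473330, minus strand) shares its start with the non-coding gene Gm10000 on the other strand, so that the regions there belong to both. The window of Mesp1 (chr7:79792241-79793788, minus strand) includes the start of its paralogue Mesp2, where the strongest Smarca4 peak had a score of 282 in ctrl and 135 in kd and the H3K27me3 island measured 18.0 kb and 8.2 kb.

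Among the endoderm genes, Gata4 (chr14:63198922-63271692, minus strand) carried H3K27me3 alone at its annotated 5′ end and the other marks in its interior. Around the transcript starts 26.4 kb downstream, Smarca4, Ezh2 and H3K27me3 were called in both conditions and H3K4me3 in kd only, from 25.7 to 26.9 kb. Counting any annotated transcript start, Gata4 would therefore be bivalent in kd. Further H3K4me3 islands lay at 14.3 to 17.1 kb and at 29.7 to 31.3 kb in ctrl and were called in kd as well. The strongest Smarca4 peak of Gata4 in ctrl, over coding sequence at 30.5 to 31.3 kb, had a score of 269, and 83 in kd. The peak at 15.3 to 16.4 kb ran the other way, with 136 and 249. Gata4 had 9 Ezh2 peaks in ctrl and 6 in kd, covering 3.55 kb and 7.92 kb. Part of the Gata4 window belongs to the neighbours Neil2 and Fdft1, whose starts carried H3K4me3 in kd only (Neil2) and in both (Fdft1).

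Gata6 (chr18:11052064-11085635, plus strand) had the widest H3K4me3 island over its start, 5.0 kb in ctrl, and a further ctrl-only island from -4.1 to -2.7 kb. The non-coding gene 1010001N08Rik starts 503 bp downstream of the Gata6 start. The 3 Ezh2 peaks of Gata6 between -0.8 and 3.2 kb in ctrl were covered by 1 peak of 4.08 kb in kd. Hnf4a had no Ezh2 peak. Its strongest Smarca4 peak lay at the start of the neighbouring gene R3hdml, 14.5 kb upstream of that of Hnf4a, with scores of 179 in ctrl and 38 in kd, and its H3K4me3 island, called in ctrl only from 12.2 to 18.6 kb, was 99.6% repeat-masked. Cer1 (chr4:82881751-82885148, minus strand) was the gene with the fewest regions. Its window held a kd-only H3K27ac island about 19 kb upstream, 96.7% of it repeat-masked, and the kd-only H3K27me3 island named above. Its neighbourhood of 20 kb was otherwise without a call of any antibody.

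H3K27ac near the 9 genes came to 1 island in ctrl and 4 in kd, none of them shared and none within 1 kb of a start of the 9 genes. The ctrl island lay from -20.7 to -18.3 kb of the Gata4 start. The kd islands lay at Mixl1, Gata4, Hnf4a and Cer1, and 3 of the 4 were repeat-masked over at least 50% of their length. Of the whole lists 23.5% of ctrl islands and 40.1% of kd islands had no counterpart.

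Other genes of the same lineages were also often bivalent. Of 24 further genes of mesoderm and primitive streak 12 were bivalent in ctrl and 18 in kd, and of 20 further endoderm genes 10 and 14, whereas the number among the 9 members was 6 and 6. The added genes came with H3K4me3, which was called at the starts of 13 and 19 mesoderm genes and of 10 and 15 endoderm genes. Among those with H3K4me3 at the start in kd only were Snai1, Pdgfra, Wnt3, Cdx1 and Cdx4 of the mesoderm list and Foxa2, Pdx1, Otx2 and Dkk1 of the endoderm list. Ezh2 lay at the starts of 16 mesoderm genes in ctrl and 19 in kd, with Tbx3, Hand1 and Cdx4 added, and of 10 and 12 endoderm genes, with Pdx1 and Hhex added. H3K27ac was added at Tbx3, Hand2 and Cdx4 and at Foxa3 and Chrd. Such gains were common outside these lists. Of all genes bivalent in ctrl, 29.2% had Ezh2 at the start in ctrl and 50.8% in kd, and 6.19% and 25% had H3K27ac. Of the whole kd list of H3K4me3, 29.8% of islands had no overlap in ctrl. Bivalent starts made up 21.2% of protein-coding genes in ctrl and 21.6% in kd. Smarca4 was called at the start in ctrl only at Meox1 and in kd only at Sox17 and Hnf4g.

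The width of H3K27me3 differed in both directions in these lists. Of the 12 mesoderm genes bivalent in both conditions 6 had narrower islands in kd, with a median ratio of 95.1%, and of the 10 endoderm genes 6 did, with a median of 86.3%. For the 6 bivalent members the count was 6 and the median 70.5%. The widest island of the mesoderm list, over Evx1, measured 188.6 kb in ctrl and 42.4 kb in kd. The widest of the endoderm list, over Pdx1, measured 73.2 and 19 kb. The same direction was seen in Foxa2 with 45 and 38.8 kb, and the opposite one in Foxa1 with 31.2 and 52.4 kb and Sox17, the endoderm HMG-box factor, with 21.4 and 29.4 kb. Ezh2 was wider in kd in 10 of 11 mesoderm and 7 of 7 endoderm genes that were bivalent with Ezh2 in both.

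The calls at most marker genes went with the labelled cell type. H3K4me3 with H3K27ac and without H3K27me3 was called at the starts of 6 of 8 ESC markers in ctrl and 7 of 8 in kd, Pou5f1, Sox2 and Nanog among them, and at 0 of 6 fibroblast and 0 of 4 neural progenitor markers in either. The ESC marker Esrrb went the other way in both conditions, with H3K27me3 (19.4 and 13.6 kb) and neither H3K4me3 nor H3K27ac at its start. Klf4 had H3K27me3 and no H3K27ac at its start in ctrl, and the reverse in kd. Neural progenitor markers Nes, Sox1 and Olig2 were bivalent in both conditions with narrower H3K27me3 in kd, at a median of 70.8%. Pax6, the other neural marker, was not bivalent and had 43.6 kb in ctrl and 48.8 kb in kd. The bivalent fibroblast marker Twist1 had 21.6 and 29.2 kb.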

How the data were processed

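Per the labels and the paper's methods, 81K1 cells were analysed by ChIP-seq with 5 antibodies in ctrl and Smarcb1 kd, with 1 library each. The authors trimmed reads (Trim Galore), aligned them to mm10 with Bowtie2 and kept unique alignments (SAMtools 1.9) on Galaxy. MACS2 gave the peaks of Smarca4 and Ezh2, each with a score deposited by the authors. Islands of the histone marks were called with SICER, and each has a p-value deposited by the authors, some listed as 0. Methods name inputs as background and the labels of these samples IgG, so the background is not certain. By the methods, Smarca4 and H3K27me3 were processed by Active Motif and the others in the authors' laboratory. Neither value is scaled between libraries.

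Regions of chromosomes 1 to 19 and the sex chromosomes were overlapped with GENCODE M21 genes (GRCm38), whereas the paper names a later release. A region was shared if at least 1 bp overlapped a region of the other condition. Counts were made with Python 3.11.15, pandas 2.3.3 and numpy 2.4.6, equalled those of bedtools 2.31.1 in all 10 lists, and were tested on simulated lists. Bases in lower case in the reference were taken as repeat-masked. The stricter threshold asked for 50 or more in the peak score, and in -log10 p for 10 or more (H3K27ac) or 20 or more (H3K27me3, H3K4me3). The 9 genes, the gene lists and the motifs were chosen with earlier results of these data known. All 9 genes are described, and of the other lists the gene with the widest H3K27me3 island and those whose calls at the start differed (some genes are not reported here), while Foxa1, Foxa2, Sox17 and the neural markers were named after their values were seen.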

Additional observations from a re-analysis of the deposited data

How the results depend on the processing

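For the 9 genes 34 results were recomputed with other settings, one at a time, and 142 of 170 recomputed counts stayed within 1.5 times the reported one. The results were counts of called genes, of unshared regions and of genes with a given direction. Counts of bivalent genes, the places of the Smarca4 peaks, the other gene lists and the motifs were not recomputed in this way. Counts of H3K27ac were the least stable. Gene regions with H3K27ac in ctrl were 1 when 20 kb flanks were included, and those in kd were 0 under the stricter threshold, 0 with lists of equal length, 4 with 20 kb flanks and 1 without regions at least 50% repeat-masked. Under the stricter threshold the unshared regions near the 9 genes, counted in ctrl and in kd, were 17 and 2 for Smarca4, 6 and 0 for H3K27me3, 0 in kd for H3K27ac, 1 in kd for Ezh2 and 0 in ctrl for H3K4me3. With flanks of 10 kb they were 21 in ctrl for Smarca4, 0 in ctrl for Ezh2, 8 and 0 for H3K27me3 and 0 in ctrl for H3K27ac. With flanks of 50 kb they were 15 in kd for Smarca4, 25 in ctrl for H3K27me3 and 14 in kd for H3K27ac. With lists of equal length they were 7 in kd for Ezh2, 6 in ctrl for H3K27me3 and 1 in kd for H3K27ac. When 50% of a region had to be overlapped, Ezh2 had 2 and 9. Without repeat-masked regions they were 0 in ctrl for Ezh2, 1 in kd for H3K27ac and 1 in ctrl for H3K4me3. The narrower H3K27me3 in kd in 7 of 7 genes and the wider Ezh2 in 5 of 5 were found under each of the alternatives added after seeing the data, which were joined regions and the stricter threshold for both and lists of equal length for H3K27me3. The smaller H3K4me3 rank in kd was found in 5 of 6 genes by rank and in 6 as a percent of the list length. Less Smarca4 coverage in kd was found in 8 genes with the stricter threshold, with lists of equal length and with flanks of 10 kb, and in 9 with flanks of 50 kb. No paired analysis was possible because each antibody has 1 library per condition, and no library could be left out. Lists without read counts leave the depth of each library, and its part in these differences, not tested.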
